A study of Marmota monax with 203 samples.

Results

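The genes of cholesterol synthesis and sterol regulation were 30 of the 17587 genes with reads in liver biopsies of woodchucks that chronically carried woodchuck hepatitis virus (WHV). They were chosen by name from 32 symbols by their place in the pathway, with earlier results of these data known. SC4MOL and SC5D among the 32 are other symbols of MSMO1 and SC5DL. By role, 8 genes lead from acetyl-CoA to the isoprenoids, 11 lead from squalene to cholesterol, 6 encode sterol regulatory element binding protein 2 (SREBP-2) and the proteins that control it, and 5 act in sterol transport, esterification and uptake. The biopsies came from 12 animals given placebo and 11 given recombinant woodchuck interferon-α (wIFN-α). All animals carried WHV since neonatal infection, the placebo group included, so that uninfected liver was not part of the comparison. Both groups were injected under the skin 3 times a week for 15 weeks, and the wIFN-α group received 20 μg at weeks 0 and 3 and 100 μg at weeks 7, 11 and 15. Biopsies of weeks 0 to 15 were taken 6 hours after a dose, week -3 preceded treatment, and weeks 19 and 23 followed it. The labels number these weeks as -3, 1, 4, 8, 12, 16, 20 and 24. Group sizes for wIFN-α and placebo were 11 and 12 at weeks -3 and 0, 9 and 12 at weeks 3 and 7, 8 and 10 at week 11, 8 and 9 at week 15, 6 and 5 at week 19, and 6 and 9 at week 23.

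Cholesterol is built from acetyl-CoA through mevalonate, the isoprenoids isopentenyl and farnesyl diphosphate, squalene and lanosterol, and the liver is a main site of this synthesis. SREBP-2, encoded by SREBF2, is the transcription factor that switches on most enzymes of the route. While sterols are plentiful its escort SCAP is held in the endoplasmic reticulum by the INSIG proteins, and when sterols fall SREBP-2 moves to the Golgi apparatus, where the proteases MBTPS1 and MBTPS2 release it. INSIG1 is itself a target of SREBP-2 and closes a negative loop, whereas INSIG2 is not.

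Between 12072840 and 84805845 reads lay on genes in the 149 biopsies used (median 28754894), and levels are given as CPM, a gene's reads as a part of all reads on genes, on a common TMM scale. The summed level of 12 hepatocyte markers was between 38117 and 214218 CPM in 147 biopsies. It was 418 CPM in placebo animal F1016 and 245 CPM in wIFN-α animal F1018 at week -3, where 14 skeletal muscle genes took 11.4% of the reads in each, so that these biopsies held almost no hepatocyte RNA. Group comparisons that rest on week -3 are therefore also given without them. Muscle genes took over 1% of the reads in 15 biopsies, 5 of them from placebo animals at week 3. In such bulk tissue, fewer cells of a type and less RNA per cell cannot be told apart. MX1, an antiviral gene induced by interferon and used as the check of treatment, had group medians of 395 to 683 CPM in placebo animals and of 5095 to 8279 CPM in wIFN-α animals over weeks 0 to 15. At week 3, wIFN-α animal F1013 had 689 CPM of MX1, below the highest placebo animal (758 CPM), and its sum of 6 interferon-stimulated genes, 738 CPM, also lay below the highest placebo sum of 842 CPM. Leaving out F1013 at week 3 kept the 3 genes called with it and added MVK as lower (-0.65, adjusted p 0.0157).

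Before treatment, levels per kilobase of transcript covered a wide range over the 21 biopsies of week -3 with hepatocyte RNA and the 29 genes with a known length. NSDHL, a sterol dehydrogenase, and MSMO1, the C4-methyl sterol oxidase, were highest with medians of 83.9 and 70.3 CPM per kb. The sterol sensor INSIG1 had a median of 29.7, squalene synthase FDFT1 31.9, mevalonate kinase MVK 23.2, squalene epoxidase SQLE 10.6 and isopentenyl diphosphate isomerase IDI1 8.10 CPM per kb. NPC1L1, a sterol importer best known from the gut, was lowest with 0.103 CPM per kb. No gene of the 30 differed between the groups to be treated with wIFN-α or placebo at week -3 by edgeR, at an adjusted p below 0.05 and a fold change above 1.5 (the rule by which a gene is called in each weekly comparison), and 0% of all 14963 genes were called. None of the 30 had an unadjusted p below 0.05 there, against 130 of all genes, and DESeq2 called 0 of the 30. Without the 2 biopsies that lacked hepatocyte RNA, 0 of the 30 were called again. The median log2 fold change of the 30 was -0.005, beside 0.002 over all genes.

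During treatment a small number of the genes differed from placebo, in both directions, while most did not pass the test. IDI1 and INSIG1 were higher in wIFN-α animals, FDFT1 and MVK were lower, HSD17B7 was higher at 2 weeks and NPC1L1 was lower at 1 week. Of the genes tested, 1 was called higher and 1 lower of 29 at week 0, where the rule selected 10.3% of all genes as higher and 8.15% as lower. At week 3, 3 of 30 were called higher and 0 lower (7.24% and 3.54% of all genes), at week 7, 2 and 2 (11.4% and 10.1%), at week 11, 2 and 1 (12.6% and 7.98%), and at week 15, 3 and 3 (13.4% and 8.83%). These shares are near those of all genes, and the counts are read as no more than that background. The median log2 fold change of the 30 genes was 0.16 at week 0, 0.20 at week 3, -0.19 at week 7, 0.12 at week 11 and -0.02 at week 15, beside medians over all genes between -0.04 and -0.01.

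**Figure D1:**
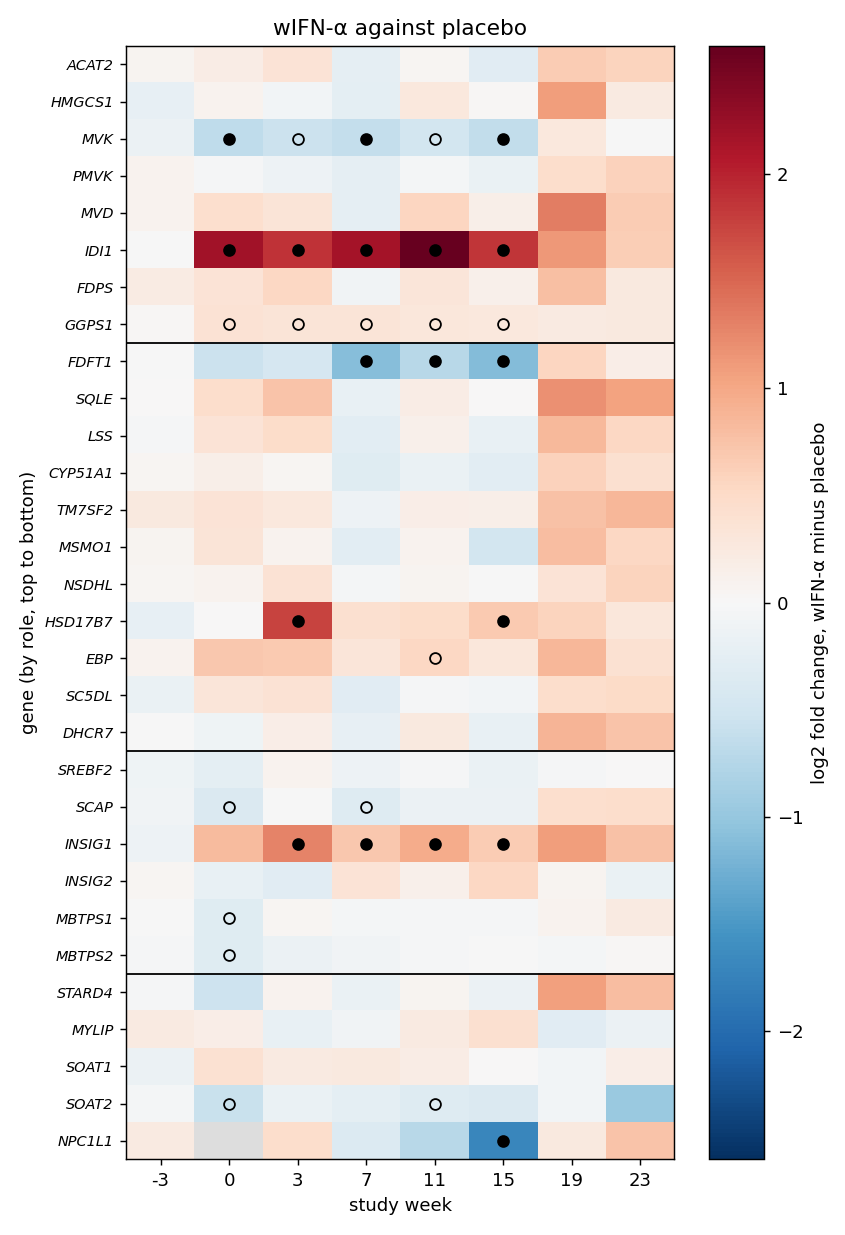
Log2 fold change of wIFN-α against placebo (color) for the 30 genes (rows, ordered by role with lines between roles) at the 8 study weeks (columns). Filled dots mark called genes, open dots an adjusted p below 0.05 with a fold change under 1.5, and grey a gene not tested. IDI1 carries a filled dot at all 5 weeks of treatment, and no gene carries one at weeks -3, 19 and 23.

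IDI1, which converts isopentenyl diphosphate to its reactive isomer, had the largest log2 fold change of the 30 genes at each of the 5 weeks of treatment. Its levels at week 0 were 9.34 to 95.6 CPM (median 21.2) in placebo animals and 27.2 to 679 CPM (median 105) in wIFN-α animals. 7 of 11 treated animals lay above every placebo animal, and the log2 fold change was 2.19 ± 0.50 (SE) with an adjusted p of 0.00127. At week 3 the ranges were 5.43 to 82.3 CPM (median 41.1) and 27 to 428 CPM (median 147), with 5 of 9 treated animals above all placebo animals (log2 fold change 1.88 ± 0.44 (SE), adjusted p 0.00385). With the sequencing lane as a covariate at week 3 the value of IDI1 was 0.86 with an adjusted p of 0.292. Lane here and below means a lane number. Different biopsies shared both lane number and barcode, so that a lane number covers several physical lanes. A biopsy with runs of several lane numbers was given that of its deepest run. Comparisons by lane therefore need not set biopsies of the same physical lane side by side. At week 3, lane number 4 held only placebo biopsies and lane number 7 only a wIFN-α biopsy. With the lane as a covariate, those biopsies carried no information on wIFN-α against placebo, for any gene.

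At the dose of 100 μg, the IDI1 levels of week 7 were 52.9 to 164 CPM (median 95.4) in placebo and 100.2 to 779 CPM (median 441) in wIFN-α animals, with a log2 fold change of 2.16 ± 0.31 (SE). At week 11 they were 26.8 to 122 CPM (median 82) and 159 to 658 CPM (median 488), and the log2 fold change of 2.59 ± 0.27 (SE) was the highest of any week (adjusted p 4.02e-07). At week 15 they were 46.2 to 111 CPM (median 66.9) and 128 to 399 CPM (median 239), with a log2 fold change of 1.85 ± 0.24 (SE). The groups did not overlap at weeks 11 and 15, when every treated animal exceeded every placebo animal. Over weeks 0 to 15, IDI1 was higher in wIFN-α animals in 21 of 21 comparisons of groups within a lane number and week. This count, like those of other genes below, used the biopsies of the calls and is no separate test. A separate entry for IDI2, a close copy of IDI1 with which reads could be shared, had medians of 19.9 CPM in placebo and 22.6 CPM in wIFN-α biopsies over these weeks, scaled to total reads only.

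**Figure D2:**
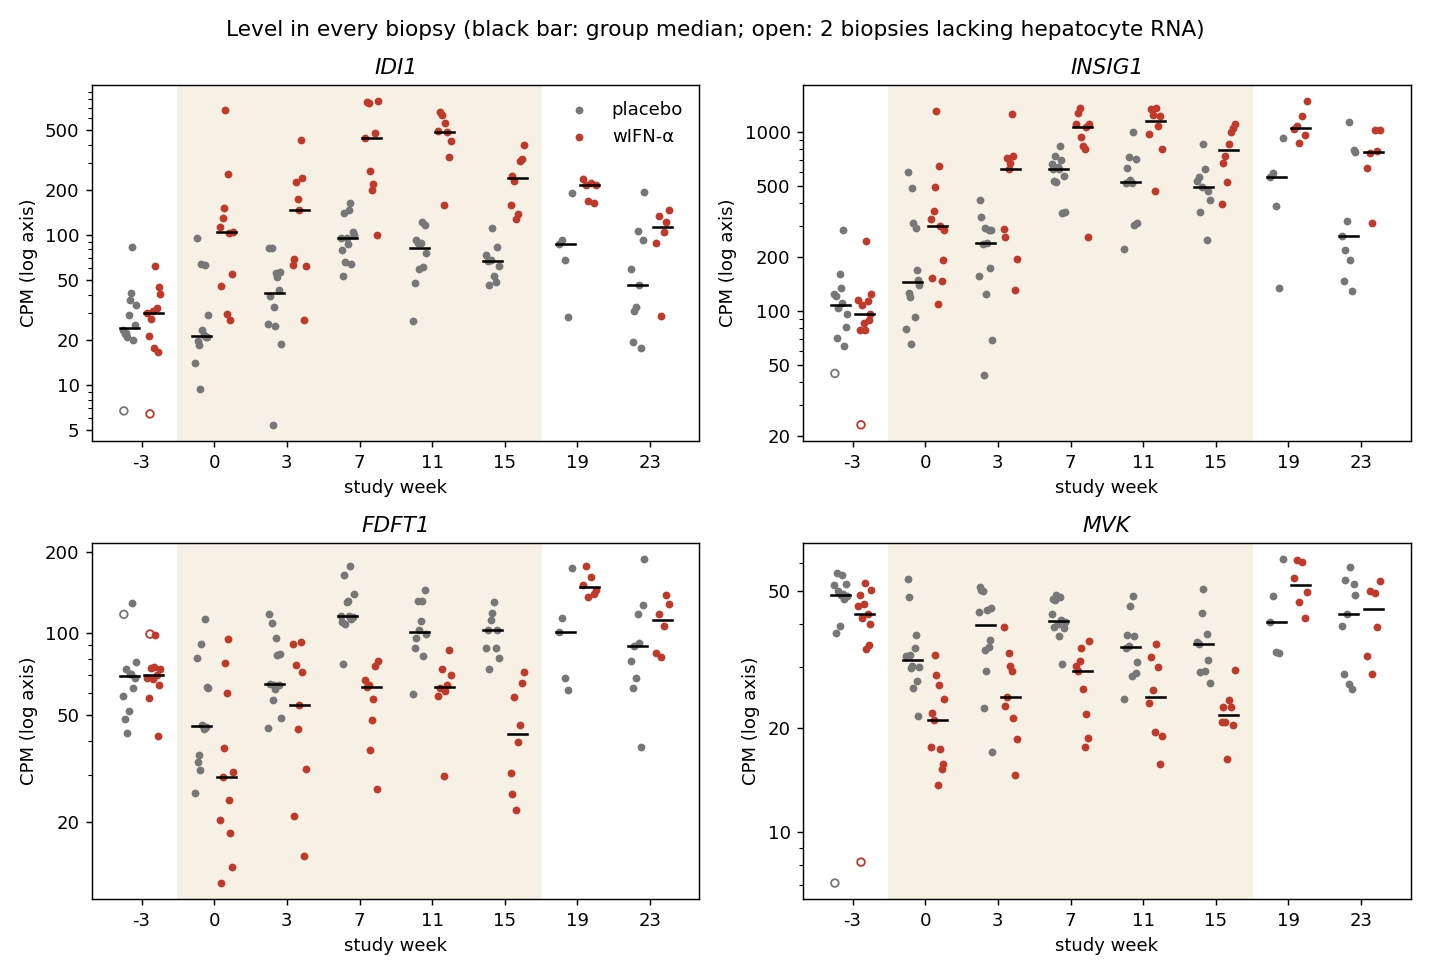
Level (CPM, log axis) of IDI1, INSIG1, FDFT1 and MVK in every biopsy by study week, placebo grey and wIFN-α red, with group medians as black bars, the treatment weeks shaded and the 2 biopsies without hepatocyte RNA as open circles. IDI1 and INSIG1 lie higher and FDFT1 and MVK lower in treated animals during weeks 0 to 15, and the levels of both groups shift between weeks.

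INSIG1, which holds SCAP in the endoplasmic reticulum, ranged from 43.8 to 419 CPM (median 238) in placebo and 132 to 1254 CPM (median 622) in wIFN-α animals at week 3, with a log2 fold change of 1.29 ± 0.39 (SE) and an adjusted p of 0.0218. At week 7 its levels were 351 to 831 CPM (median 623) and 260.2 to 1366 CPM (median 1072), and 7 of 9 treated animals lay above all placebo animals while M1007, at 260.2 CPM, lay below all of them (log2 fold change 0.71 ± 0.20 (SE), adjusted p 0.00628). At week 11 the levels were 223 to 1004 CPM (median 528) and 467 to 1362 CPM (median 1149), and at week 15 250.2 to 851 CPM (median 491) and 397 to 1104 CPM (median 792), with log2 fold changes of 0.96 ± 0.25 (SE) and 0.67 ± 0.23 (SE) and adjusted p values of 0.00582 and 0.0251. The groups overlapped at each of these weeks. At week 0 the log2 fold change of 0.83 ± 0.42 (SE) did not pass (adjusted p 0.133), and it passed without the biopsies over 1% muscle (1.18, adjusted p 0.022).

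Several alternatives ended the calls of INSIG1, some with a smaller fold and some with a like one. With the lane as a covariate the log2 fold change shrank to 0.58 at week 3 (adjusted p 0.478) and to 0.43 at week 7 (adjusted p 0.21), whereas at week 15 it was 0.84 (adjusted p 0.0502). At week 3 it was 1.00 without the biopsies over 1% muscle (adjusted p 0.093) and 1.03 without M1002 (adjusted p 0.0647). At week 15 it was 0.60 without M1003 (adjusted p 0.0533) and 0.58 without M1012 (adjusted p 0.0532). In one fit of all weeks it was 0.71 at week 7 and 0.64 at week 15, with adjusted p values of 0.101 and 0.19. With the animal as a block over all weeks, the log2 fold changes were 0.54, 0.89 and 0.48 at weeks 7, 11 and 15, and their adjusted p values of 0.423, 0.181 and 0.508 missed the threshold, whereas week 0 passed it (0.88, adjusted p 0.036). INSIG1 was higher in wIFN-α animals in 18 of 21 comparisons within a lane and week.

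FDFT1, squalene synthase, which joins farnesyl diphosphates in the first step committed to sterols, was lower in treated animals at weeks 7, 11 and 15. At week 7 its levels were 76.9 to 177 CPM (median 116) in placebo and 26.7 to 78.6 CPM (median 63.4) in wIFN-α animals, and 8 of 9 treated animals lay below every placebo animal (log2 fold change -1.11 ± 0.17 (SE), adjusted p 1.03e-05). At week 11 they were 59.8 to 144 CPM (median 101) and 29.6 to 86.8 CPM (median 63.5) (log2 fold change -0.72 ± 0.18 (SE), adjusted p 0.00373). At week 15 they were 74 to 129.8 CPM (median 103) and 22.3 to 72.1 CPM (median 42.6), and the groups did not overlap (log2 fold change -1.13 ± 0.21 (SE), adjusted p 0.000411). At weeks 0 and 3 the values of -0.56 and -0.43 did not pass, with adjusted p values of 0.205 and 0.289. With the lane as a covariate FDFT1 was called at week 3 too, with -1.08 (adjusted p 0.0402). With the animal as a block, FDFT1 was called at week 0 as well (-0.71, adjusted p 0.00844). FDFT1 was lower in wIFN-α animals in 19 of 21 comparisons within a lane and week.

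MVK, mevalonate kinase, was lower in wIFN-α animals at every week of treatment, with an adjusted p below 0.05 at all 5 weeks and a fold change above 1.5 at weeks 0, 7 and 15. At week 0 its levels were 21.6 to 53.9 CPM (median 31.4) in placebo and 13.7 to 32.4 CPM (median 21.1) in wIFN-α animals (log2 fold change -0.66 ± 0.15 (SE), adjusted p 0.00172). At week 7 they were 30.7 to 48.4 CPM (median 40.8) and 17.6 to 35.7 CPM (median 29.2) (log2 fold change -0.62 ± 0.12 (SE), adjusted p 0.000158), and at week 15 26.9 to 50.6 CPM (median 34.9) and 16.2 to 29.5 CPM (median 21.9) (log2 fold change -0.65 ± 0.13 (SE), adjusted p 0.000533). 7 of 8 treated animals lay below every placebo animal at week 15. At weeks 3 and 11 the log2 fold changes were -0.55 and -0.47, and without the biopsies over 1% muscle MVK was called at week 3 (-0.74, adjusted p 0.00999) and not at week 0 (-0.49, adjusted p 0.0123). At week 3 it was also called with the lane (-0.81) or sex (-0.59) as a covariate and without F1013 (-0.65) or F1020 (-0.60). MVK was lower in wIFN-α animals in 21 of 21 comparisons within a lane and week.

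GGPS1, which makes geranylgeranyl diphosphate for protein prenylation, had a small and regular difference. Its log2 fold change was 0.38, 0.34, 0.33, 0.29 and 0.27 at weeks 0 to 15, with adjusted p values between 9.41e-05 and 0.00461 and a fold change under 1.5 at every week. At week 3 its levels were 13.2 to 17 CPM (median 15.4) in placebo and 17.7 to 21.7 CPM (median 18.7) in wIFN-α animals, without overlap. The other 5 genes from acetyl-CoA to the isoprenoids did not pass at any week of treatment. These were ACAT2, a thiolase that joins acetyl-CoA units, HMGCS1, which makes HMG-CoA, PMVK, MVD, and FDPS, farnesyl diphosphate synthase. PMVK phosphorylates phosphomevalonate, and MVD decarboxylates mevalonate diphosphate. The log2 fold changes of these 5 genes lay between -0.30 and 0.55.

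HSD17B7, the 3-ketosteroid reductase of the late sterol route, was called higher at weeks 3 and 15. At week 3 its levels were 5.70 to 30.5 CPM (median 17.3) in placebo and 21 to 253 CPM (median 37.4) in wIFN-α animals, and the highest value was that of animal M1012, whose biopsy had 1.37% muscle reads and, with 62217 CPM, the lowest hepatocyte sum among treated animals of that week. The log2 fold change was 1.76 ± 0.42 (SE) with an adjusted p of 0.00442, and 1.00 with an adjusted p of 0.014 without M1012. Without the biopsies over 1% muscle it was 0.67 (adjusted p 0.0736), and with the lane as a covariate 1.02 (adjusted p 0.217). At week 15 the levels were 11.9 to 49.9 CPM (median 21.1) and 18.2 to 59.3 CPM (median 36.5) (log2 fold change 0.69 ± 0.24 (SE), adjusted p 0.0288), and the adjusted p was 0.0683 without M1012, 0.166 in one fit of all weeks and 0.266 with the animal as a block, with log2 fold changes of 0.55, 0.66 and 0.52. With the lane as a covariate HSD17B7 was called at week 11 as well (0.62, adjusted p 0.0281). HSD17B7 was higher in wIFN-α animals in 17 of 21 comparisons within a lane and week. All 9 treated animals at week 7 and all 8 at week 11 lay above the placebo median, and the values of 0.41 and 0.47 did not pass beside single placebo animals that reached 126 and 93.8 CPM.

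The other genes from squalene to cholesterol were not called at any week of treatment by edgeR. They are SQLE, LSS, which forms lanosterol, CYP51A1, the lanosterol demethylase, TM7SF2, a sterol C14 reductase, MSMO1, NSDHL, EBP, which shifts the double bond of the sterol ring, SC5DL, the C5 desaturase, and DHCR7, the last reductase before cholesterol. EBP passed the adjusted p alone at week 11, with a log2 fold change of 0.53 ± 0.15 (SE) and an adjusted p of 0.00884. Its values at weeks 0 and 3 were 0.69 and 0.67, with adjusted p values of 0.0672 and 0.0643. EBP was called at week 0 by DESeq2 (0.70, adjusted p 0.0438), in one fit of all weeks (0.70), with the lane as a covariate (0.87), with animal 1004 (0.82) and without the biopsies over 1% muscle (0.91), F1023 (0.79) or M1006 (0.78). At week 3 it was called by DESeq2 (0.67, adjusted p 0.0388), with animal 1004 (0.79) and without F1014 (0.75), M1007 (0.78) or M1012 (0.75), and at week 11 without F1020 (0.62). Over the 5 weeks SQLE lay between -0.20 and 0.75, LSS between -0.28 and 0.48, and MSMO1 between -0.49 and 0.34. MSMO1 was called lower at week 15 without M1003 (-0.65, adjusted p 0.0322) or M1012 (-0.63, adjusted p 0.0401).

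Among the regulators, SREBF2 itself had log2 fold changes from -0.26 to 0.09 and was not called. SCAP passed the adjusted p alone at weeks 0 and 7, with -0.37 and -0.34, and the proteases MBTPS1 and MBTPS2 did so at week 0, both with -0.31. INSIG2 was not called, with 0.55 at week 15 (adjusted p 0.0872), but was called higher there without M1003 (0.64, adjusted p 0.0484). Of the genes of sterol transport and uptake, NPC1L1 was called lower at week 15, with levels of 0.506 to 7.61 CPM (median 1.02) in placebo and 0.0882 to 1.05 CPM (median 0.568) in wIFN-α animals, a log2 fold change of -1.69 ± 0.53 (SE) and an adjusted p of 0.0168. The highest placebo value came from F1021, and without that animal the log2 fold change was -1.02 (adjusted p 0.0409). With the lane as a covariate the adjusted p was 0.262.

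SOAT2, the hepatocyte enzyme that esterifies cholesterol, passed the adjusted p alone at weeks 0 and 11, with log2 fold changes of -0.57 and -0.34. It was called lower at week 0 with the lane as a covariate (-0.80, adjusted p 0.00146), with animal 1004 (-0.60) and without F1014 (-0.64) or F1018 (-0.71). SOAT1, its counterpart in most other cells, STARD4, which carries sterol between membranes, and MYLIP, which marks lipoprotein receptors for degradation, did not pass at any week, and their values over weeks 0 to 15 lay between -0.55 and 0.43. Without placebo animal M1008, MYLIP was called higher at week 15 (0.62, adjusted p 0.00593).

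Genes of neighboring pathways were taken from lists of 5 kinds. Of 6 genes of lipoprotein uptake and lysosomal sterol, 1 was called higher at each week of treatment, LIPA, the lysosomal acid lipase that frees cholesterol from its esters. Its levels at week 15 were 58.5 to 84.1 CPM (median 72.2) in placebo and 103 to 197 CPM (median 168) in wIFN-α animals without overlap (log2 fold change 1.15 ± 0.12 (SE), adjusted p 3.21e-07), and its log2 fold changes at weeks 0, 3, 7 and 11 were 0.87, 1.27, 1.28 and 1.32. Of 10 genes of the isoprenoid branches, FNTB, the beta subunit of farnesyltransferase, was called higher at each week, and 1 other gene was called lower at week 0. FNTB levels at week 15 were 2.13 to 4.99 CPM (median 2.35) in placebo and 8.88 to 11.4 CPM (median 10.02) in wIFN-α animals (log2 fold change 1.82 ± 0.16 (SE), adjusted p 5.79e-08). Of 7 genes of sterol efflux, ABCG5, part of the biliary sterol exporter, was called lower at weeks 0, 7 and 15, with log2 fold changes of -0.64, -0.78 and -0.64 and adjusted p values of 0.00335, 2.51e-05 and 0.00808. ABCG1 was called lower at week 7. None of the 2 oxysterol enzymes and the 4 genes of sterol-regulated degradation that were tested was called by edgeR at these weeks.

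Markers of other cell types also differed between the groups in these biopsies. Hepatocyte markers were called higher at weeks 7 and 15 for 2 of 12 and lower for none, and their summed level lay between 71078 and 141279 CPM in treated and between 71106 and 105362 CPM in placebo animals at week 15. At that week 8 of 10 T cell markers, 4 of 10 myeloid markers, with 1 lower, and 12 of 12 proliferation genes were called higher. B and plasma cell markers were called higher for 3 of 6 at week 15, CSF3R alone of the neutrophil markers at each week of treatment, 1 of 5 cholangiocyte markers at each of these weeks, and 1 of 3 erythrocyte markers was called lower at weeks 7, 11 and 15, as was 1 of 5 adipocyte markers at weeks 0 and 15. Proliferation genes were called lower for 9 of 12 at week 0 and higher for 12 of 12 at week 11. The summed T cell markers of week 15 were 124 to 273 CPM in treated and 50.8 to 99.5 CPM in placebo animals. No muscle gene was called in any weekly comparison, with a median log2 fold change of -1.90 over the 14 at week 3. The part of the other cell types in the values of IDI1, INSIG1, FDFT1 and MVK was not tested.

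Whether the effect of wIFN-α differed from the difference between the groups before treatment was tested in one fit of all biopsies. The mean effect over weeks 0 to 15 minus that of week -3 was 2.14 ± 0.42 (SE) for IDI1 (adjusted p 1.71e-05), 1.03 ± 0.36 for INSIG1 (adjusted p 0.0242), 0.30 ± 0.07 for GGPS1 (adjusted p 0.000394) and -0.78 ± 0.26 for FDFT1 (adjusted p 0.0138), so that 3 of 30 genes passed with a higher and 1 with a lower value, beside 15.4% and 12.1% of all genes. Without the 2 biopsies that lacked hepatocyte RNA, these 4 genes passed again and MVK did so with -0.44 ± 0.16 (adjusted p 0.0299). With the animal as a block INSIG1 did not pass (0.77, adjusted p 0.0927).

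The effect at the 100 μg weeks minus the effect at the 20 μg weeks passed for 0 of the 30 genes by edgeR, beside 3.86% of all genes with a higher and 1.64% with a lower value, and DESeq2 also called 0. The difference was 0.14 ± 0.36 (SE) for IDI1, -0.50 ± 0.22 for FDFT1, 0.02 ± 0.17 for MVK and -0.29 ± 0.32 for INSIG1, with adjusted p values of 0.89, 0.185, 0.982 and 0.676. With the animal as a block, NPC1L1 passed with -1.42 (adjusted p 0.00909). Dose and time on treatment changed together and cannot be told apart. For HSD17B7, the effect at week 3 minus that at week 0, a contrast chosen after its values were seen, was 1.72 ± 0.47 (adjusted p 0.02), beside 2.4% of all genes that passed. Without M1012 at week 3 it was 0.98 ± 0.44 (adjusted p 0.254).

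**Figure D3:**
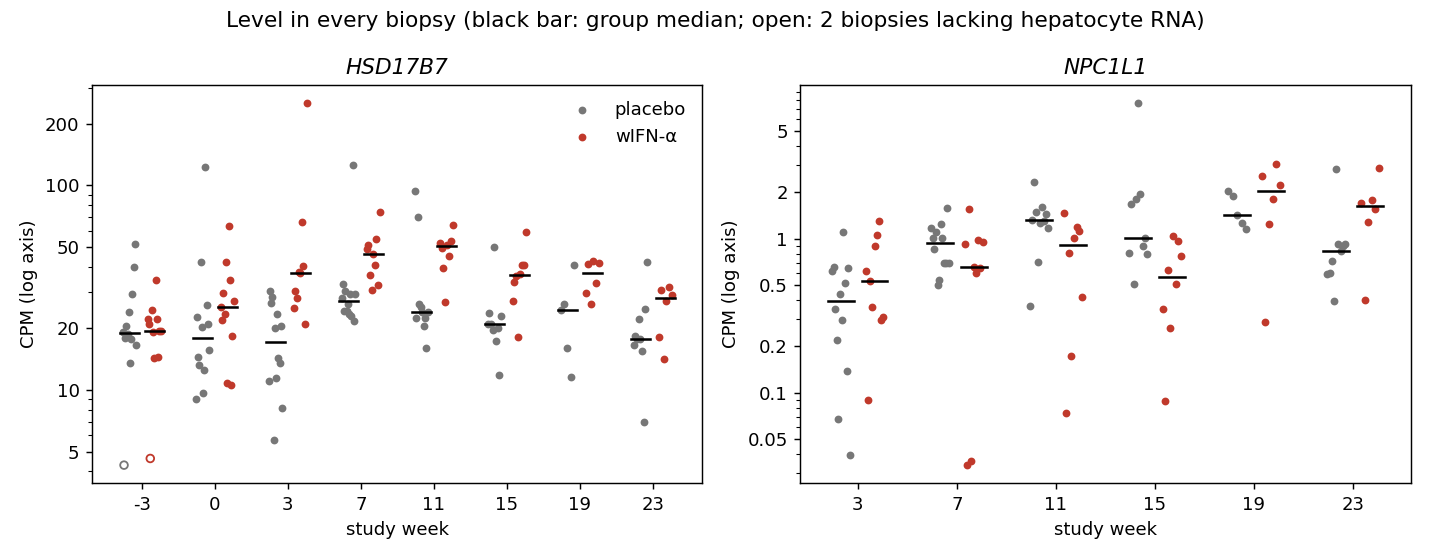
Level (CPM, log axis) of HSD17B7 at all 8 weeks and of NPC1L1 at weeks 3 to 23 in every biopsy, placebo grey and wIFN-α red, with group medians as black bars and the 2 biopsies without hepatocyte RNA as open circles. The highest HSD17B7 value, at week 3, is that of wIFN-α animal M1012, and the highest NPC1L1 value, at week 15, that of placebo animal F1021.

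After treatment no gene of the 30 was called. At week 19, 25 of 30 genes had a positive log2 fold change with a median of 0.57 beside -0.01 over all genes, 12 had an unadjusted p below 0.05 (40% of the 30, beside 12.6% of all genes), and 0% of all genes were called by edgeR. DESeq2 called 0 of the 30 and 89 of all genes. IDI1 levels in the 5 placebo animals of week 19 were 28.2, 67.9, 86.6, 92.5 and 192 CPM, and the 6 wIFN-α animals had 164 to 235 CPM (median 214), with a log2 fold change of 1.12 ± 0.36 (SE) and an adjusted p of 0.313. INSIG1 levels in placebo animals were 134, 387, 558, 588 and 931 CPM and 867 to 1486 CPM (median 1055) in wIFN-α animals, with a log2 fold change of 1.09 ± 0.37 (SE) and an adjusted p of 0.32. Both groups overlapped for both genes. FDFT1 had 61.6, 68.4, 101, 113 and 173 CPM in placebo and 136 to 177 CPM (median 147) in wIFN-α animals, so that its value of 0.55 was positive after treatment (adjusted p 0.369). At week 23, 26 of 30 values were positive with a median of 0.43 beside -0.05 over all genes, 6 had an unadjusted p below 0.05 (20% beside 16.2% of all genes) and 0% of all genes were called by edgeR, while DESeq2 called 0 of the 30 and 53 of all genes. IDI1 had a log2 fold change of 0.64 ± 0.48 (SE) there, with levels of 17.5 to 192 CPM (median 46.6) in placebo and 28.8 to 146 CPM (median 113) in wIFN-α animals. STARD4 was called at week 23 only with the animal as a block (1.52, adjusted p 0.0119).

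In placebo animals, many of these genes changed over the weeks. Between weeks 0 and 3 and weeks 7, 11 and 15, 16 of the 30 genes rose and 2 fell by the same rule of adjusted p and fold change, beside 5.06% and 8.14% of all 15984 genes. The median log2 fold change of the 30 was 0.63, beside -0.04 over all genes. The 30 genes were chosen with earlier results of these data known, so these shares are a description and no separate test. The genes that rose were 3 of 8 from acetyl-CoA to the isoprenoids, 10 of 11 from squalene to cholesterol, 1 of 6 regulators and 2 of 5 of transport and uptake, and the genes that fell were INSIG2 and SOAT2. An F test for any change over the 8 weeks passed for 26 of 30 genes, beside 68% of all genes, and not for MVK, PMVK, HSD17B7 and MBTPS2. Without the 2 biopsies that lacked hepatocyte RNA it passed for 27, MVK being the gene added (adjusted p 0.00739), and MVK also passed without animal F1016 (adjusted p 0.00157) and without the biopsies over 1% muscle (adjusted p 0.000279). HSD17B7 passed without M1008 (adjusted p 0.0187).

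**Figure D4:**
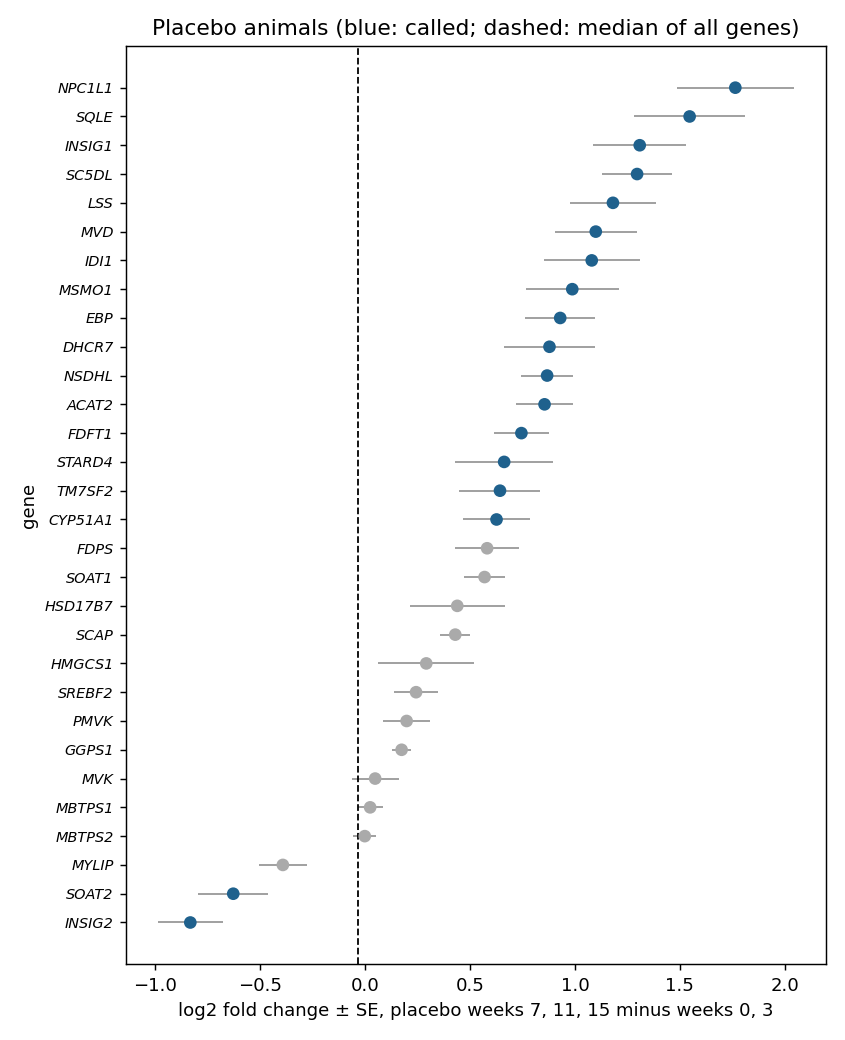
Log2 fold change with SE (bars) of the 30 genes in placebo animals, mean of weeks 7, 11 and 15 minus mean of weeks 0 and 3, with called genes in blue and the median over all genes (-0.04) as a dashed line. NPC1L1 and SQLE lie furthest to the right with 1.76 and 1.55, and INSIG2 lies furthest to the left with -0.83.

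Among the genes from acetyl-CoA to the isoprenoids, ACAT2 had placebo medians of 177, 202, 376, 345 and 366 CPM at weeks 0, 3, 7, 11 and 15, a log2 fold change of 0.86 ± 0.13 (SE) and an adjusted p of 3.76e-07, and its level was higher in 12 of 12 animals. Such counts of animals, here and below, averaged the weeks each animal had, and M1009 and M1010 had only week 7 of the later weeks. The counts used the biopsies of the calls and are no separate test. MVD had medians of 16.8, 29.96, 58.4, 53.7 and 46 CPM, with a log2 fold change of 1.10 ± 0.19 (adjusted p 4.48e-06). IDI1, also without wIFN-α, rose from medians of 21.2 and 41.1 CPM to 95.4, 82 and 66.9 CPM, by a log2 fold change of 1.08 ± 0.23 (adjusted p 8.88e-05), in 11 of 12 animals. FDPS passed the adjusted p with 0.58 and a fold change just under 1.5. HMGCS1 varied between animals and did not pass (0.29 ± 0.23, adjusted p 0.301), with medians of 108, 188, 371, 172 and 139 CPM.

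From squalene to cholesterol, SQLE rose most. Its placebo levels were 10.7 to 145 CPM (median 38.2) at week 0, 7.06 to 119 CPM (median 69.4) at week 3 and 132 to 344 CPM (median 179) at week 7, and the log2 fold change was 1.55 ± 0.26 (adjusted p 2.30e-06) with a rise in 12 of 12 animals. The highest level of week 0 lay just above the lowest of week 7. SC5DL had medians of 158, 169, 384, 388 and 403 CPM at weeks 0 to 15 and a log2 fold change of 1.30 ± 0.17 (adjusted p 3.87e-09), with a rise in 12 of 12 animals. LSS had medians of 92.5, 143, 326, 269.9 and 233 CPM and a log2 fold change of 1.18 ± 0.20 (adjusted p 2.71e-06). MSMO1, EBP, DHCR7 and NSDHL rose by 0.99 ± 0.22, 0.93 ± 0.17, 0.88 ± 0.22 and 0.87 ± 0.12, and FDFT1, TM7SF2 and CYP51A1 by 0.75 ± 0.13, 0.64 ± 0.19 and 0.63 ± 0.16, each with an adjusted p of at most 0.0052. HSD17B7 was the member of this role that was not called (0.44 ± 0.23, adjusted p 0.107).

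The lowest placebo level of the other 7 genes rose between weeks 0 and 7. MSMO1 had 20.8 to 139.7 CPM (median 51.4) at week 0 and 135 to 286 CPM (median 198) at week 7, and DHCR7 21.1 to 136 CPM (median 37.6) and 89.7 to 197 CPM (median 144). EBP had 42.7 to 122 CPM (median 56.8) and 111 to 199 CPM (median 158), and TM7SF2 18.9 to 129 CPM (median 54.4) and 99.2 to 183 CPM (median 146). FDFT1 had 25.6 to 113 CPM (median 45.4) and 76.9 to 177 CPM (median 116). NSDHL had 73.3 to 256 CPM (median 149) and 250.5 to 359.9 CPM (median 286), and CYP51A1 29.9 to 145 CPM (median 77.2) and 103 to 222 CPM (median 165). For each of these genes the ranges of both weeks overlapped in part. Without animal F1021, whose week 3 biopsy had 10.2% muscle reads, CYP51A1 and TM7SF2 were not called (0.52 and 0.51), and without M1011 CYP51A1 was not (0.56). In 12 of 12 animals NSDHL was higher at the later weeks, as were EBP, FDFT1, CYP51A1 and TM7SF2, and MSMO1 and DHCR7 were higher in 11 of 12.

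The INSIG genes moved in opposite directions. INSIG1 levels in placebo animals were 65.3 to 598 CPM (median 145) at week 0, 351 to 831 CPM (median 623) at week 7 and 129 to 1139 CPM (median 261) at week 23, and the log2 fold change between weeks 0 and 3 and weeks 7 to 15 was 1.31 ± 0.22 (adjusted p 2.11e-06), higher in 12 of 12 animals. INSIG2 had 63 to 231 CPM (median 117) at week 0 and 37.7 to 106 CPM (median 50.7) at week 7, with a log2 fold change of -0.83 ± 0.15 (adjusted p 9.59e-06), lower in 12 of 12 animals. SREBF2 was not called (0.24 ± 0.10, adjusted p 0.0523), with medians between 75.6 and 89.2 CPM over weeks 0 to 15, and SCAP passed the adjusted p alone (0.43 ± 0.07). MBTPS1 had 0.02 ± 0.06 (adjusted p 0.759), and MBTPS2 missed the test with an adjusted p of 0.986. SOAT2 fell, with a log2 fold change of -0.63 ± 0.17 (adjusted p 0.00176), with medians of 66.1, 42.1, 34, 30.6 and 28 CPM, and was lower in 12 of 12 animals. NPC1L1 rose from medians of 0.21 and 0.395 CPM to 1.32 CPM at week 11 (1.76 ± 0.28, adjusted p 4.30e-07) and STARD4 rose by 0.66 ± 0.23 (adjusted p 0.0163), from medians of 16.1 and 11.9 CPM to 23.8 CPM at week 7. Without M1001 or M1011 STARD4 had 0.57 and 0.58 and was not called, nor was SOAT2 without F1015 (-0.58). SOAT1 passed the adjusted p with 0.57 and was higher in 12 of 12 animals, at a fold change just under 1.5, and MYLIP passed it with -0.39.

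**Figure D5:**
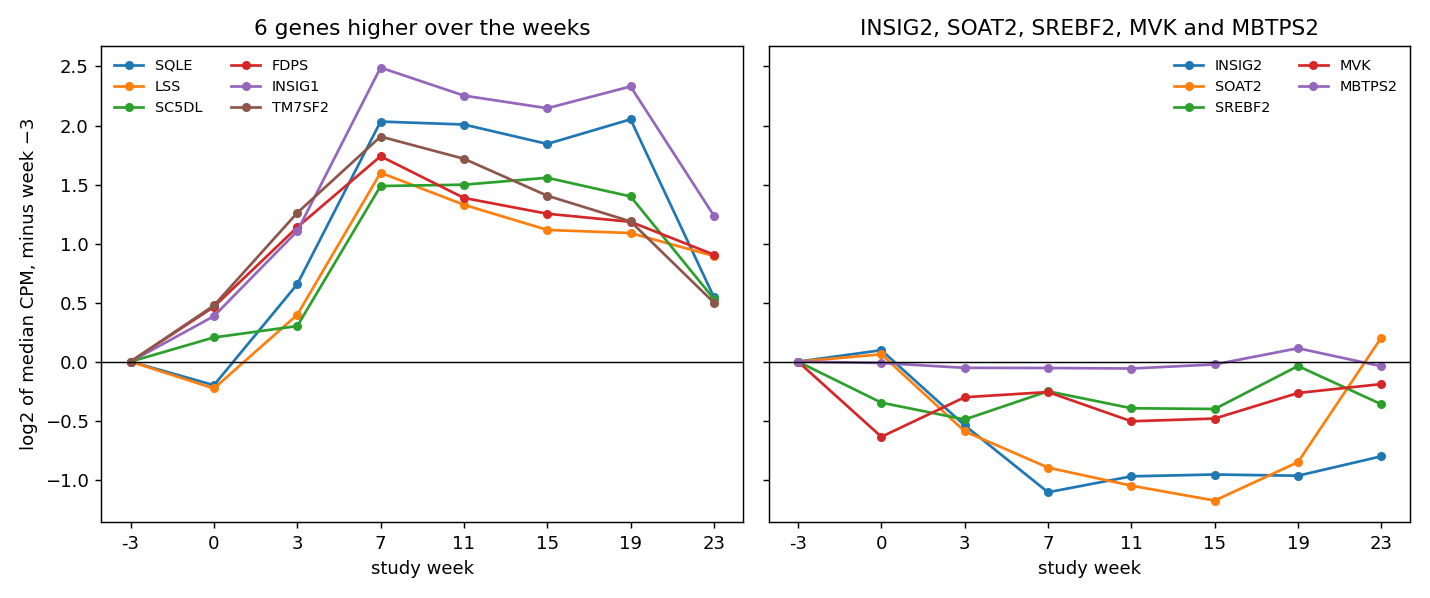
Median level in placebo animals at each study week relative to week -3 (log2 scale), without the biopsy lacking hepatocyte RNA, for 6 genes that were higher over the weeks (left) and for INSIG2, SOAT2, SREBF2, MVK and MBTPS2 (right). At week 7, INSIG1 stands above SQLE, TM7SF2, LSS and SC5DL, and INSIG2 and SOAT2 lie below week -3 from week 3 to week 19.

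Relative to week -3, weeks 0 to 15 had 13 genes higher and 1 lower, beside 3.75% and 8.48% of all genes, with a median of 0.50 beside -0.05. Without the week -3 biopsy of F1016 the counts were 11 and 2, beside 4.61% and 5.35%, and MSMO1 and DHCR7 were lost while SOAT2 was gained. In the fit without that biopsy, the highest values were those of INSIG1 (1.62), TM7SF2 (1.55), STARD4 (1.20), EBP (1.18) and FDPS (1.14), and the lowest was that of INSIG2 (-0.77, adjusted p 0.000114). SREBF2 passed the adjusted p with -0.56 at a fold change just under 1.5. Weeks 15 to 23 minus weeks -3 to 3 had 13 genes higher and 1 lower, beside 5.47% and 9.69% of all genes, with a median of 0.56 beside -0.02, and 14 higher and 1 lower without that biopsy (5.33% and 7.83%). With the animal as a block, MSMO1 and DHCR7 were lost from the former contrast, and in the latter STARD4 was lost and SOAT1 gained. FDPS and TM7SF2, which were higher at weeks 0 to 15, were not called in this later contrast, with 0.55 and 0.45.

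Other transcripts also differed between these placebo weeks. Between weeks 0 and 3 and weeks 7 to 15, 5 of 14 muscle genes were called lower with a median of -1.91, as were 4 of 6 neutrophil, 3 of 12 proliferation, 2 of 12 hepatocyte and 1 of 5 adipocyte markers, with 1 hepatocyte marker higher. Summed hepatocyte markers had medians of 112481, 100001, 100463, 90659.5 and 90725 CPM at weeks 0, 3, 7, 11 and 15. Without the biopsies over 1% muscle, 13 of the 30 genes were called higher and 2 lower, the values of CYP51A1, TM7SF2 and STARD4 being 0.55, 0.50 and 0.51. Within lane numbers, each of the 16 genes was higher in weeks 7 to 15 in 6 of 6 and INSIG2 and SOAT2 lower in 6 of 6. These genes were called on the same placebo biopsies, so that their direction here is no separate test. Of the genes not called, GGPS1, FDPS, SCAP and SOAT1 were also higher and MYLIP lower in 6 of 6. The remaining genes went both ways between lane numbers. With the animal as a block, 17 genes were called higher and 2 lower, FDPS being the gene added. The shares of all genes given for this contrast belong to the main fit. Those of the fits without muscle biopsies and with the block are not given here. Of the neighboring lists, 3 of 7 genes of sterol efflux and 1 of 6 of lipoprotein uptake were called higher, 1 of the latter lower, and 2 of 10 of the isoprenoid branches lower. All weekly comparisons of wIFN-α with placebo share these placebo biopsies. The part of muscle and neutrophil transcripts in the placebo changes was not tested beyond these values.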

How the data were processed

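Liver biopsies were profiled by paired-end RNA sequencing of 50 nucleotides after poly(A) selection. The authors processed the runs with CASAVA and FastQC, aligned them with Bowtie2 to their own assembly of the woodchuck transcriptome, counted them with SAMtools and deposited 1 table per run with an estimated count of reads and an RPKM value per gene. The strand used in counting was not given in the sources used here. The deposited RPKM values were used only to obtain transcript lengths. Of 3368022 nonzero counts 118 were not whole, and all were rounded. The 203 runs were summed into 164 biopsies. Of these, 149 were used, of which 37 had more than 1 run. The 8 biopsies of other weeks and the 7 of animal 1004, which the study also excluded, were left out.

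Groups were compared per week with the quasi-likelihood test of edgeR 4.0.16 (R 4.3.3) on TMM scaled counts after its default filter on low counts, two-sided, with Benjamini-Hochberg adjustment over all genes tested. Calls needed both an adjusted p below 0.05 and a fold change above 1.5. Differences between effects and the F test over placebo weeks used the adjusted p alone, in fits of all biopsies or all placebo biopsies. DESeq2 1.42.0, fits with the animal as a block, and fits with other filters, scalings, covariates and animals were alternatives, and the tests were tested on simulated counts. For the weekly calls the block was a random one in limma 3.58.1. For the differences between effects and the placebo contrasts it was a fixed term for each animal in edgeR. Biopsies of the same animal deviated together from their group means (median correlation 0.304 over 450 pairs, beside -0.0219 over 4409 pairs of other animals), so the animal pairs biopsies across weeks. At least 12072840 reads lay on genes per biopsy. Members of the gene set and the other lists were chosen with earlier results of these data known. Named were members called in at least 1 treatment week or placebo contrast, the member of each role with the largest change at week 15, pathway genes called at 3 or more treatment weeks, and MX1. A planned search of promoters for motifs was not run, since no promoter sequence was at hand.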

Additional observations from a re-analysis of the deposited data

Results flagged for a closer look

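In groups of 4 to 10 samples, a single sample stood far from the others by Dixon's criterion in 7 of 60 groups looked at over 6 genes, and chance gives about 1 in 20. For IDI1, wIFN-α animal F1018 had 28.8 CPM at week 23, with the nearest animal at 87.9. For FDFT1, F1020 had 29.6 CPM at week 11, with the nearest at 58.6. For HSD17B7, M1012 had 253 CPM at week 3, with the nearest at 66.5, and placebo animal F1021 had 49.9 CPM at week 15, with the nearest at 23.7. For INSIG1, M1007 had 260.2 CPM at week 7, with the nearest at 804. For NPC1L1, F1021 had 7.61 CPM at week 15, with the nearest at 1.95, and placebo animal M1001 had 2.84 CPM at week 23, with the nearest at 0.925. The biopsies of M1012 at week 3 and F1021 at week 15 had 1.37% and 0.883% muscle reads, and those of M1007 and F1020 had 0.0322% and 0.0444%.

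The effect of wIFN-α over weeks 0 to 15 differed from the group difference of week -3 on the log2 scale by 2.14 for IDI1, 1.03 for INSIG1, 0.30 for GGPS1 and -0.78 for FDFT1, by a test of the difference itself. INSIG1 did not pass with the animal as a block (0.77, adjusted p 0.0927). The effect on HSD17B7 differed by 1.72 between weeks 3 and 0, in a contrast chosen after its values were seen, and without M1012 at week 3 by 0.98 (adjusted p 0.254).

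Animal M1004 was given wIFN-α and kept out of every comparison but the alternatives named as with animal 1004. It lay above every placebo animal for IDI1 at weeks 0, 3, 7, 11 and 15, with 469, 684, 361, 323 and 461 CPM. The same held for INSIG1 at weeks 0, 3 and 15, with 1039, 1389 and 905 CPM, and for HSD17B7 at week 3, with 61.9 CPM. INSIG1 lay within the placebo range at weeks 7 and 11, with 769 and 819 CPM. FDFT1 had 68.4, 125, 41.7, 45.2 and 45.5 CPM at weeks 0, 3, 7, 11 and 15, above every placebo animal at week 3 (highest 118 CPM) and below every one at weeks 7, 11 and 15. MVK had 27.2, 49.5, 31.7, 21.9 and 31.7 CPM at these weeks, above the placebo median of 39.7 CPM at week 3 and below every placebo animal at week 11. The levels of M1004 were scaled by TMM with that animal included and without the filter on low counts, unlike those of the placebo animals. Narrow margins, such as that of FDFT1 at week 3, therefore rest on unlike scales.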

How the results depend on the processing

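No value of a gene called in the main fit changed direction under the alternatives run, and values of genes not called were not checked for it. Shares of all genes are not given for the counts below. Of 2 members called at week 0, 1 had a fold change above 2, and the count was 7 by adjusted p only and 4 each with animal 1004 included, the lane as a covariate, all weeks in one fit, or the animal as a replicate block. At week 3, 3 became 5 by adjusted p only, and with the lane as a covariate 2 were called of which 0 were shared with the 3. Of 4 at week 7, 2 had a fold change above 2. Of 3 at week 11, 1 did, and 7 passed by adjusted p only. Of 6 at week 15, 3 had a fold change above 2. The block gave 1 call in place of 0 at week 23 and 1 in place of 0 for the difference between dose weeks, and the blocked values that changed a call stand beside the results. Without 1 animal the counts ranged from 2 to 3 at week 0, 2 to 4 at week 3, 3 to 4 at weeks 7 and 11, 5 to 7 at week 15 and 0 to 0 at week 19. MVK at week 7 fell just below the fold change threshold without M1002, M1003 or M1007 (-0.56, -0.58 and -0.56). The placebo counts stayed within 1.5 times under all 20 alternatives each, at 25 to 27, 12 to 15, 12 to 18 and 15 to 20. MSMO1 and DHCR7 at weeks 0 to 15 against week -3 had adjusted p values near the threshold and were lost with the block (0.0584 and 0.0556). The cause of these shifts was not tested. The alternative without biopsies over 1% muscle gave no value at weeks 7, 15, 19 and 23, which had none, and the promoter search was not run. Fits chosen after seeing the data were those without F1021 at week 15, without each placebo animal, without the 2 biopsies lacking hepatocyte RNA, and the HSD17B7 contrast of weeks 3 and 0.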
